A study of Mus musculus with 4 samples.

Results

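The genes described here make, fold, check and ship secretory proteins at the endoplasmic reticulum (ER), and 46 of them were listed by symbol out of 24012 symbols in the deposited table. All 46 were found, and where a symbol had several entries the one with the highest mean over the libraries was used. They were separated by role into 16 folding genes (chaperones, co-chaperones, lectin chaperones and oxidoreductases), 16 genes of protein translocation and early processing, 7 genes of ER-associated degradation, 3 genes that sense ER stress and 4 genes of vesicle export. The study measured RNA of whole mouse islets at low and at high glucose. The islets came from wild type male mice of the C57bl6 strain, aged 3 months, and were cultured as a pool overnight at 11 mM glucose. They then spent 2 h at 2.8 mM, followed by either 2.8 mM or by 16.8 mM glucose, with 2 libraries for each. The design text and the methods state 12 h at both concentrations, but the labels of the low-glucose samples state 2 h, and which of these holds is not known. If the labels hold, time in culture and glucose cannot be told apart. Because the animals were pooled and nothing says that the libraries came from separate pools, p-values measure only the spread between these libraries, which may be technical.

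Insulin enters the ER as preproinsulin through the Sec61 channel, loses its signal peptide there, is folded and cross-linked by disulfide bonds, and leaves in COPII vesicles. Chaperones such as BiP hold unfolded chains, protein disulfide isomerases form and correct the bonds, and chains that fail to fold are drawn back to the cytosol and degraded by the ERAD machinery. When unfolded protein accumulates, the sensors IRE1, PERK and ATF6 start the unfolded protein response, and the factors ATF6 and XBP1 raise transcription of chaperone and ERAD genes through the ER stress response element (ERSE) in their promoters.

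Values are RPKM, read numbers divided by transcript length and library depth, and the recovered depth ran from 50700000 to 60660000 reads a library. The deposited values fitted whole reads with the genomic span of the transcript, introns included, as the length, although the paper names RefSeq exons. With that length a gene with long introns has a low RPKM. Levels were therefore compared between genes as exon-scaled RPKM, the same reads divided by exon length, which assumes that all of them lie in exons. Changes were tested with limma on log2(RPKM + 0.5) over the 7867 transcripts whose mean reached 1 RPKM, and a log2 fold change below 0 means a lower level at 16.8 mM. Of all transcripts tested, 33.4% passed an adjusted p of 0.05, 22.8% lower and 10.7% higher at 16.8 mM, and their median log2 fold change was -0.11. That median moved by less than 0.1 with another scaling, but the share of rises among the calls went from 31.9% to 42.3% with quantile normalization and to 44.1% with each library centred on its median. In whole islets, fewer cells of a type and less RNA per cell cannot be told apart.

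Most of the folding and degradation members fell at 16.8 mM glucose, while most translocation members and the export members did not pass the test. Other genes of these roles are described further below. *Hspa5*, which encodes BiP, was 2.77-fold lower, and *Calr*, encoding calreticulin, was 2.68-fold lower. Of the 45 members that passed the minimum, 21 fell and 1 rose, against 22.8% lower and 10.7% higher calls over all transcripts. The folding genes had 12 falls, 1 rise and a median log2 fold change of -0.73 (16 of 16 tested), and the degradation genes had 6 falls, no rise and a median of -0.77 (7 of 7 tested). Among the 16 translocation genes 2 fell and the median was -0.05. Among the 4 export genes none passed in the test as stated and the median was 0.11 (*Sar1b* alone had an unadjusted p under 0.05 and alone passed with voom). Both 16.8 mM libraries lay below both 2.8 mM libraries for 14 of 16 folding genes and for 7 of 7 degradation genes, an order that 48.3% of all transcripts had. The reverse order held for 2 folding, 4 translocation and 3 export genes, against 22.2% of all transcripts. Differences between the classes are given as counts and medians and were not tested.

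**Figure D1:**
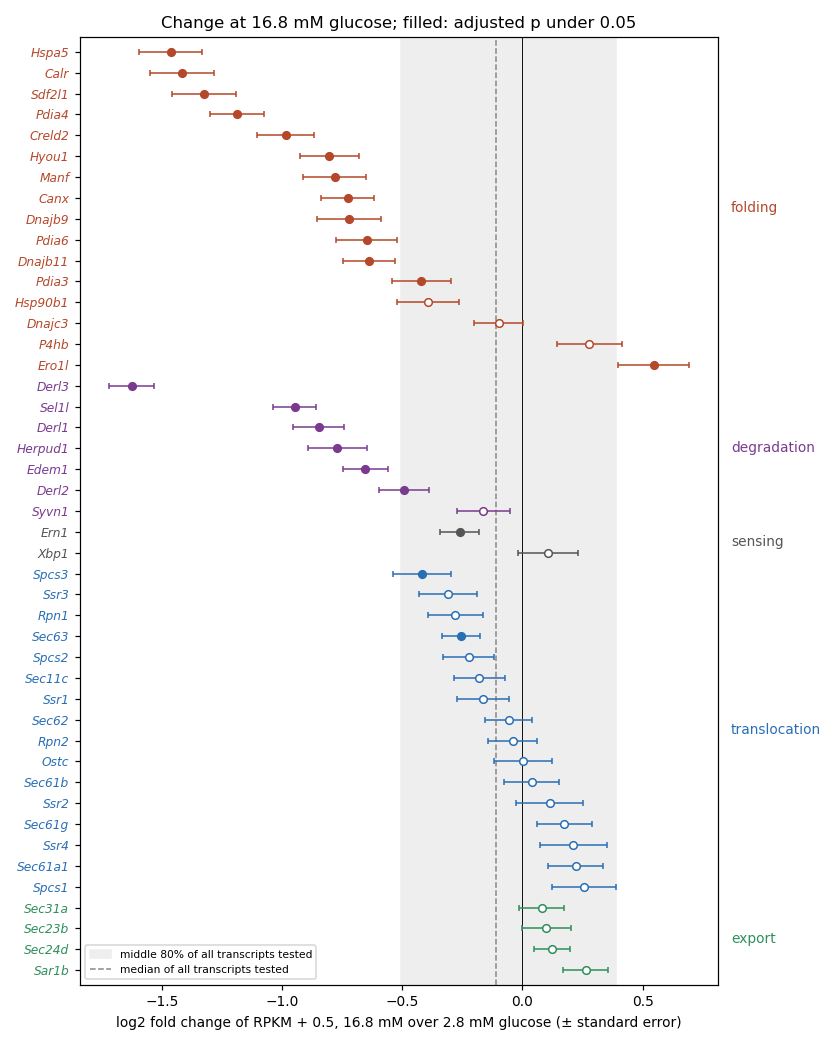
Log2 fold change of RPKM + 0.5 at 16.8 mM over 2.8 mM glucose for the 45 members tested, 2 libraries at each concentration, with bars of 1 standard error. Filled points passed an adjusted p of 0.05, the grey band holds the middle 80% of all transcripts tested (log2 fold changes of -0.50 to 0.39) and the dashed line is their median of -0.11. Most folding and degradation genes lie to the left of the band and the translocation and export genes lie inside it.

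Centring each library on its median kept all 22 calls in their direction and quantile normalization kept 21 of them. Both scalings added rises outside the degradation class. The members then counted 10 higher and 23 lower with centring, where 47.9% of all transcripts were called, and 6 higher and 25 lower with quantile normalization, where 47.4% were. All 4 export genes were higher under both.

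BiP, the Hsp70 chaperone of the ER lumen and the ATP-driven motor that pulls chains through Sec61, was the most abundant member in both groups. *Hspa5* (NCBI build 37, chr2:34627612-34632051, + strand, 9 exons) was at 617 and 554 RPKM in the 2.8 mM libraries and at 218 and 205 RPKM in the 16.8 mM libraries. Both high-glucose libraries were far below both low-glucose libraries. Its log2 fold change was -1.46 (SE 0.13, limma adjusted p = 5.8e-04), and 0.407% of the transcripts tested had a lower one. Reads behind these values were an estimated 159706, 127672, 58671 and 46249.

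*Hyou1*, an Hsp70-like nucleotide exchange factor for BiP, was at 51.6 and 49.3 RPKM at 2.8 mM and at 28.9 and 28.4 RPKM at 16.8 mM (log2 fold change -0.80, SE 0.12, limma adjusted p = 0.0040). *Hsp90b1*, encoding GRP94, the Hsp90 of the ER, was at 77.1 and 71.3 RPKM and at 55.6 and 57.1 RPKM. Its groups did not overlap, yet its log2 fold change of -0.39 missed the threshold (SE 0.13, limma adjusted p = 0.053). It passed with centring and with quantile normalization. The lincRNA *1810014B01Rik* overlaps 27.0% of the *Hsp90b1* span on the opposite strand and had between 0.938 and 1.68 RPKM. Within the chaperones the change thus ran from a log2 fold change of -1.46 for *Hspa5* to -0.39 for *Hsp90b1*.

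BiP works with co-chaperones, of which those of the DnaJ family (here *Dnajb9*, *Dnajb11* and *Dnajc3*) load clients and trigger its ATPase. *Sdf2l1*, a partner of *Dnajb11* that keeps clients soluble, fell most of all co-chaperones listed, from 55.9 and 48.3 RPKM to 20.9 and 19.97 RPKM (log2 fold change -1.33, SE 0.13). *Manf*, a secreted ER stress protein that binds BiP, went from 51.7 and 45.5 RPKM to 27.8 and 28.2 RPKM (log2 fold change -0.78, SE 0.13). *Dnajb9*, encoding ERdj4, which also represses IRE1, went from 60.8 and 54.3 RPKM to 35.9 and 33.4 RPKM (log2 fold change -0.72, SE 0.13). *Dnajb11*, encoding ERdj3, which binds nascent chains, had 7.57 and 6.77 RPKM at 2.8 mM and 4.53 and 4.32 RPKM at 16.8 mM (log2 fold change -0.64, SE 0.11).

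These 4 co-chaperones passed with limma adjusted p-values of 8.6e-04 for *Sdf2l1*, 0.0055 for *Manf*, 0.0074 for *Dnajb9* and 0.0055 for *Dnajb11*. The call of *Dnajb9* was lost without 16.8 mM glucose replicate 2, where its limma adjusted p was 0.053. *Dnajc3*, encoding p58IPK, a BiP co-chaperone once described as an inhibitor of eIF2α kinases, was at 4.97 and 4.49 RPKM at 2.8 mM and at 4.36 and 4.39 RPKM at 16.8 mM. That difference (log2 fold change -0.10, SE 0.10) was about its standard error and near the median of all transcripts.

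The lectin chaperones calnexin and calreticulin hold glycoproteins until they fold. *Calr* (chr8:87365749-87370833, - strand, 9 exons) was at 240.1 and 223 RPKM at 2.8 mM and at 90.7 and 82.2 RPKM at 16.8 mM, a log2 fold change of -1.42 (SE 0.13, limma adjusted p = 6.6e-04). *Canx* was at 15.9 and 15.8 RPKM and at 9.62 and 9.13 RPKM, a smaller log2 fold change of -0.73 (SE 0.11, limma adjusted p = 0.0040). The soluble lectin thus lay further below its low-glucose level than the membrane-bound one, though the difference between these changes was not tested.

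The oxidoreductases split. *Pdia4*, encoding ERp72, fell from 14.8 and 13.5 RPKM to 5.80 and 6.04 RPKM (log2 fold change -1.19, SE 0.11), and *Creld2*, a thioredoxin-like ER protein induced by ER stress, fell from 15.3 and 13.5 RPKM to 7.21 and 6.79 RPKM (log2 fold change -0.99, SE 0.12). *Pdia6*, encoding P5, fell from 26.3 and 23.1 RPKM to 15.8 and 15.3 RPKM (log2 fold change -0.65, SE 0.13). *Pdia3*, encoding ERp57, the partner of the lectin chaperones, went from 33.3 and 31.3 RPKM to 24.4 and 23.5 RPKM (log2 fold change -0.42, SE 0.12). The first 3 had limma adjusted p-values of 6.6e-04, 0.0017 and 0.0092. *Pdia3* had 0.037, and lost its call with no minimum RPKM (0.054), without 2.8 mM glucose replicate 1 (limma adjusted p = 0.083) or without either 16.8 mM library (0.14 without replicate 1 and 0.23 without replicate 2).

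*P4hb*, encoding protein disulfide isomerase itself, and *Ero1l*, encoding the oxidase ERO1α that recharges it, lay the other way. *P4hb* (chr11:120421612-120434567, - strand, 11 exons) was at 61.4 and 60.1 RPKM at 2.8 mM and at 78.9 and 69.0 RPKM at 16.8 mM. Its groups did not overlap, but the log2 fold change of 0.28 (SE 0.13) did not pass (limma adjusted p = 0.15), except with centring (log2 fold change 0.36) and with voom on reconstructed reads. *Ero1l* (chr14:45902879-45938237, - strand, 16 exons) was at 6.19 and 7.50 RPKM at 2.8 mM and at 11.3 and 9.14 RPKM at 16.8 mM. It rose with a log2 fold change of 0.55 (SE 0.15, limma adjusted p = 0.029), the only rise among the members. That call was lost without 16.8 mM glucose replicate 1 (limma adjusted p = 0.11), with quantile normalization (0.055) and with no minimum RPKM (0.11).

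**Figure D2:**
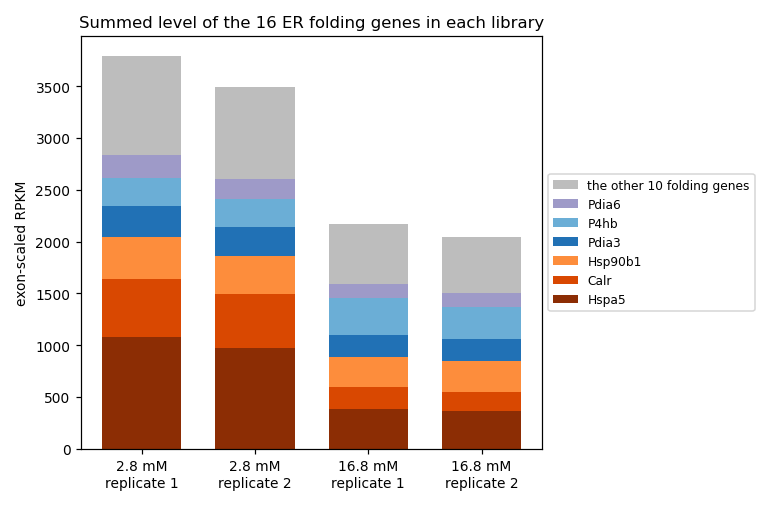
Summed level of the 16 folding genes in each of the 4 libraries, in exon-scaled RPKM, stacked by gene. The total was 3793 and 3495 at 2.8 mM and 2168 and 2045 at 16.8 mM, and the blocks of *Hspa5* and *Calr* shrink most while that of *P4hb* is larger at 16.8 mM.

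On the exon-scaled values the makeup of the 16 listed folding genes differed as well as their total. Other ER folding genes are not part of this sum. The 16 genes summed to 3644 ± 210.2 exon-scaled RPKM at 2.8 mM and 2107 ± 86.6 at 16.8 mM (mean ± SD, n = 2), a ratio of 0.578. Without *Hspa5* the ratio was 0.663. *Hspa5* made up 28.5% and 27.8% of that sum in the 2.8 mM libraries and 17.6% in each of the 16.8 mM libraries. *P4hb* made up 7.33% and 7.79% at 2.8 mM and 16.5% and 15.3% at 16.8 mM. By exon-scaled level *Hspa5* ranked first of the 46 members in both groups, *Calr* went from rank 2 to rank 5 and *P4hb* from rank 5 to rank 2. At 16.8 mM, *Calr* at 211 and 191 and *Pdia3* at 220 and 212 lay close together. The translocation genes, in contrast, summed to 1328 ± 103.5 at 2.8 mM and 1301 ± 32.7 at 16.8 mM, a difference smaller than the SD.

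**Figure D3:**
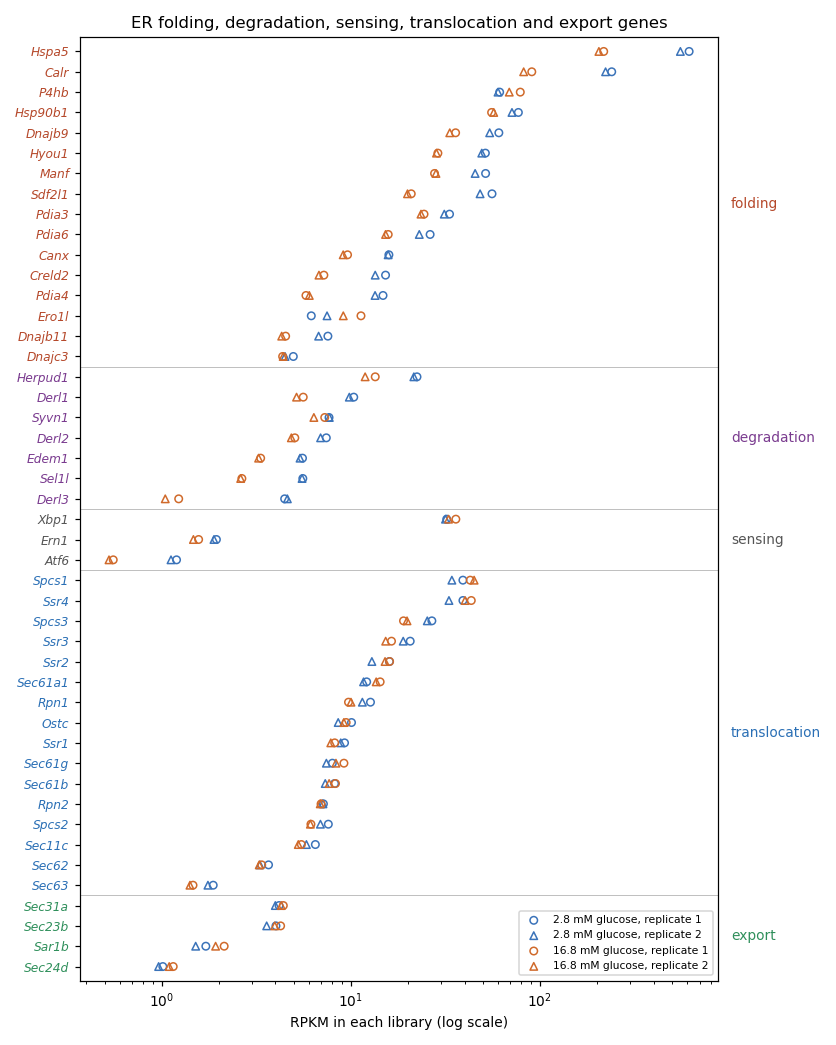
RPKM of each of the 46 members in each library on a log axis, with circles for replicate 1 and triangles for replicate 2, blue for 2.8 mM and orange for 16.8 mM glucose, ordered by mean within each role. Blue lies to the right of orange in nearly all folding and degradation rows (*P4hb* and *Ero1l* are the exceptions), and the colours lie close together or cross in most translocation and export rows.

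ERAD draws misfolded chains out of the ER through a channel that the ligase HRD1 (*Syvn1*), its partner SEL1L and the derlins build. *Derl3* (chr10:75356143-75358686, + strand, 7 exons), the derlin that is most tied to secretory cells, had the largest fall of the 45 members tested. It was at 4.47 and 4.62 RPKM at 2.8 mM and at 1.23 and 1.04 RPKM at 16.8 mM, 3.997-fold lower (log2 fold change -1.63, SE 0.09, limma adjusted p = 1.2e-04). It also had the fewest reads of the members, an estimated 135 in the shallowest case, and 0.318% of the transcripts tested had a lower log2 fold change. *Derl1* went from 10.4 and 9.83 RPKM to 5.61 and 5.17 RPKM (log2 fold change -0.85, SE 0.11) and *Derl2* from 7.43 and 6.93 RPKM to 5.06 and 4.85 RPKM (log2 fold change -0.49, SE 0.10). All 3 derlins fell, with limma adjusted p-values of 0.0020 for *Derl1* and 0.012 for *Derl2*, and *Derl2* lost its call without 16.8 mM glucose replicate 2 (0.057).

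In the ligase complex the adaptor and the ligase differed in their tests. *Sel1l* was at 5.58 and 5.53 RPKM at 2.8 mM and at 2.66 and 2.62 RPKM at 16.8 mM (log2 fold change -0.95, SE 0.09, limma adjusted p = 7.2e-04). *Herpud1*, a membrane protein that helps to assemble the complex, went from 22.4 and 21.6 RPKM to 13.5 and 11.9 RPKM (log2 fold change -0.77, SE 0.12, limma adjusted p = 0.0046). *Syvn1* had 7.68 and 7.71 RPKM at 2.8 mM and 7.29 and 6.39 RPKM at 16.8 mM, where the log2 fold change of -0.16 (SE 0.11, limma adjusted p = 0.30) did not pass. *Edem1*, a mannosidase-like protein that hands glycoproteins to ERAD, fell from 5.56 and 5.40 RPKM to 3.34 and 3.26 RPKM (log2 fold change -0.65, SE 0.09, limma adjusted p = 0.0031). The libraries of each concentration lay close together for these genes, and the 7 degradation genes summed in exon-scaled RPKM to 0.571 of their 2.8 mM level, close to the ratio of the folding genes.

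The sensors are rarer transcripts. *Atf6*, the membrane-bound precursor of a transcription factor, was at 1.20 and 1.12 RPKM at 2.8 mM and at 0.555 and 0.527 RPKM at 16.8 mM. It was the member left out by the minimum, and its mean was 2.15-fold lower at 16.8 mM. With no minimum its log2 fold change was -0.67 (SE 0.05, limma adjusted p = 0.024). Its long span lowers its RPKM, and the reads behind these values were an estimated 4361 to 11422 a library. With voom on reconstructed reads the log2 fold change of *Atf6* was -1.10 (voom adjusted p = 7.7e-09). *Ern1*, encoding IRE1α, the kinase and RNase that splices *Xbp1* mRNA, was at 1.95 and 1.89 RPKM and at 1.57 and 1.47 RPKM. It passed narrowly (log2 fold change -0.26, SE 0.08, limma adjusted p = 0.046), and leaving out any 1 library ended the call, with adjusted p-values from 0.062 to 0.23. *Xbp1* was at 32.2 and 31.7 RPKM at 2.8 mM and at 36.0 and 32.9 RPKM at 16.8 mM (log2 fold change 0.11, SE 0.13, limma adjusted p = 0.54). These values count spliced and unspliced *Xbp1* mRNA together, and the splicing was not measured here.

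Of the 16 translocation genes 14 did not pass. The groups of 12 did not overlap, 8 lower and 4 higher at 16.8 mM. Of all transcripts, 48.3% had the lower and 22.2% the higher order, so these counts were near those shares. With centring 4 passed as higher and 3 as lower, where 47.9% of all transcripts were called. The pore subunit *Sec61a1* was at 12.1 and 11.7 RPKM at 2.8 mM and at 14.3 and 13.6 RPKM at 16.8 mM (log2 fold change 0.22, SE 0.11, limma adjusted p = 0.17), and it passed as higher with centring, with quantile normalization and with voom. Its small partners *Sec61b* and *Sec61g* had log2 fold changes of 0.04 (SE 0.11) and 0.18 (SE 0.11), and *Sec61g* passed as higher with both scalings. *Sec62* and *Sec63* serve chains that enter after translation, and SEC63 recruits BiP to the channel. *Sec63* fell from 1.87 and 1.76 RPKM to 1.47 and 1.41 RPKM (log2 fold change -0.26, SE 0.08, limma adjusted p = 0.048), a call that leaving out any 1 library ended, with adjusted p-values from 0.077 to 0.28. *Sec62* had a log2 fold change of -0.06 (SE 0.10) and overlapping groups. Its sign turned with both scalings and without 2.8 mM glucose replicate 1.

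The TRAP complex assists the insertion of chains with weak signal peptides. Its subunits lay on both sides of 0, with log2 fold changes of -0.31 for *Ssr3*, -0.16 for *Ssr1*, 0.11 for *Ssr2* and 0.21 for *Ssr4*, and none passed in the test as stated. *Ssr3* alone had an unadjusted p under 0.05, and it passed as lower with quantile normalization, with centring, without the variance trend and with voom. *Ssr4* passed as higher with centring (limma adjusted p = 0.041). The sign for *Ssr2* turned without 2.8 mM glucose replicate 2. *Ssr4* was the most abundant translocation gene by exon-scaled level, at 182 and 154 exon-scaled RPKM at 2.8 mM and 202 and 187 at 16.8 mM.

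Signal peptidase cuts the signal peptide. *Spcs3*, encoding an essential subunit, fell from 26.9 and 25.4 RPKM to 19.0 and 19.9 RPKM (log2 fold change -0.42, SE 0.12, limma adjusted p = 0.035). Its call was lost with no minimum (0.051) and without any library but 2.8 mM glucose replicate 2, where the adjusted p-values were 0.079 to 0.19. *Spcs1*, of which *Glt8d1* on the opposite strand overlaps 12.2%, was at 39.2 and 34.3 RPKM and at 42.9 and 45.0 RPKM. Its log2 fold change of 0.26 (SE 0.13) did not pass (limma adjusted p = 0.17), except as higher with centring and with voom. *Spcs2* at -0.22 and the catalytic subunit gene *Sec11c* at -0.18 did not pass either in the test as stated. *Spcs2* passed as lower with quantile normalization (limma adjusted p = 0.041) and with voom (0.038). *Sec11c* passed as lower only with voom and the replicate block. Of the 4 subunit genes, 3 had log2 fold changes below 0 and *Spcs1* had one above 0.

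Oligosaccharyltransferase attaches N-glycans as chains enter. *Rpn1* and *Rpn2*, encoding the ribophorins, had log2 fold changes of -0.28 (SE 0.11, limma adjusted p = 0.10) and -0.04 (SE 0.10), and *Ostc* had 0.00 (SE 0.12). The sign for *Rpn2* turned with centring and that for *Ostc* without 2.8 mM glucose replicate 2 or 16.8 mM glucose replicate 1. *Rpn1* passed as lower with quantile normalization (0.0499) and with voom (0.013).

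COPII vesicles carry folded cargo to the Golgi. *Sar1b*, encoding the GTPase that starts the coat, was at 1.71 and 1.51 RPKM at 2.8 mM and at 2.14 and 1.93 RPKM at 16.8 mM (log2 fold change 0.26, SE 0.09, limma adjusted p = 0.066). The coat genes *Sec24d* (1.01 and 0.964 RPKM, then 1.15 and 1.10 RPKM), *Sec23b* and *Sec31a* had log2 fold changes of 0.12, 0.10 and 0.08. All 4 were above 0, and each passed as higher when the libraries were centred or quantile normalized.

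Promoter sequences were searched for the ERSE, which is known from the promoters of chaperone and ERAD genes. Its presence in members of these kinds is therefore not an independent result. RefSeq windows (GRCm38.p6) from 250 bases before to 50 bases after the start matched 37 of the 46 members. Both strands were searched for the ERSE, which is CCAAT, 9 bases of any kind and CCACG, and for the shorter ERSE-II, which is ATTGG, 1 base of any kind and CCACG. The ERSE was in 0.119% of 32851 windows and in 9 of the 37 members, and the ERSE-II was in 0.0365% of windows and in 2 members. They are shown because they are rare among all windows and, among the members with a window, lie only in folding and degradation genes. Each line gives the matched letters in capitals with 10 bases on either side, read on the strand where the motif starts with CCAAT or ATTGG. The 8 that fell come first.
Hspa5, chr2:34772015-34772053, + strand: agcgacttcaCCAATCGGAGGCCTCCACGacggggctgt
Calr, chr8:84847065-84847103, + strand: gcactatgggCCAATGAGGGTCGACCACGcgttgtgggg
Creld2, chr15:88819510-88819548, - strand: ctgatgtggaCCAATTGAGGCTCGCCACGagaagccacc
Canx, chr11:50325790-50325828, - strand: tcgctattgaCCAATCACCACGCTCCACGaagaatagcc
Pdia6, chr12:17266481-17266519, + strand: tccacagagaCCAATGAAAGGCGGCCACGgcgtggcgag
Derl3, chr10:75893232-75893270, - strand: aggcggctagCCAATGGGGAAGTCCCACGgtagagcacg
Dnajb11, chr16:22857842-22857872, + strand: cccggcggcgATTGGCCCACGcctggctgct
Herpud1, chr8:94386367-94386397, + strand: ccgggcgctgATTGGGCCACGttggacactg
Hsp90b1, chr10:86705628-86705666, - strand: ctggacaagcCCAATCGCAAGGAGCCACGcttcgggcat
Hsp90b1, chr10:86705523-86705561, + strand: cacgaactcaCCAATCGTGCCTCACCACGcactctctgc
Dnajc3, chr14:118937817-118937855, + strand: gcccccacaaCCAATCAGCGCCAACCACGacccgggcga
Syvn1, chr19:6046522-6046560, + strand: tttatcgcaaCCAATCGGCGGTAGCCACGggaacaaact

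The spacer letters between CCAAT and CCACG differ from gene to gene, as the motif allows. The whole window of *Hspa5*, shown because it was the most abundant member, has its match starting 65 bases before the transcription start.
Hspa5, chr2:34771840-34772139, + strand: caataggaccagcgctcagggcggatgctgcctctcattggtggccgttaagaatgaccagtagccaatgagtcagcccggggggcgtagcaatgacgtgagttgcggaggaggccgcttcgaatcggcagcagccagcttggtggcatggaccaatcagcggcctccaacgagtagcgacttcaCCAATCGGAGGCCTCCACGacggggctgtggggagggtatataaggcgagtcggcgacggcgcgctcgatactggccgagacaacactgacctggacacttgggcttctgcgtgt

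By role, an ERSE or ERSE-II was in 8 of 14 matched folding genes and 3 of 6 matched degradation genes, and in 0 of 11 translocation, 0 of 2 sensing and 0 of 4 export genes. The 11 members with a match had a median log2 fold change of -0.73, and 8 fell, against 22.8% of all transcripts. Folding and degradation genes whose window held no match fell about as often, 7 of 9 with a median of -0.65, and so did 3 of 3 with no window. *Hsp90b1*, which has 2 matches, *Dnajc3* and *Syvn1* did not pass. A match was thus found both in the gene with the largest fall, *Derl3*, and in genes near the median of all transcripts. Of 38 other genes with a match 12 were tested, of which 4 fell (*Alg12* and the near-identical copies *Xlr3a*, *Xlr3b* and *Xlr3c*, which may share reads) and *Ero1lb* rose. *Alg12* lies head to head with *Creld2* and its window holds the same site. *Krtcap2*, one of the other translocation genes described below, has an ERSE-II and did not pass (log2 fold change -0.31, limma adjusted p = 0.11). The same windows were searched on both strands for the UPRE, a site bound by XBP1 (TGACGTGG, in 0.676% of windows), found in *Sec24d* only, and for the CARE bound by ATF4 (TGATG, 1 base of any kind and AAT, in 0.965% of windows), found in no member. A match describes these letters only.

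Other genes of the same ER steps, listed by role, had medians nearer to that of all transcripts than the folding and degradation members had. Of 18 other folding genes tested, 3 rose and 3 fell, with a median log2 fold change of -0.04. The largest rise there was that of *Ero1lb*, encoding ERO1β, the ERO1 form of the pancreas, which was at 8.11 and 7.52 RPKM at 2.8 mM and at 15.2 and 17.8 RPKM at 16.8 mM (log2 fold change 1.03, SE 0.13, limma adjusted p = 0.0017). The largest fall was that of *Cnpy3*, a co-chaperone of GRP94 (log2 fold change -0.61, limma adjusted p = 0.0038). Both genes for ERO1 oxidases were thus higher at 16.8 mM, one a member and one not.

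Of 20 other degradation genes 6 fell and none rose (median -0.10), led by *Man1b1*, a mannosidase of glycoprotein quality control (-0.48). Of 24 other translocation genes 3 fell and 1 rose (median -0.17). The largest log2 fold changes there were -0.45 for *Magt1* and 0.75 for *Dad1*, both subunits of oligosaccharyltransferase. Of 19 other export genes 3 fell and 3 rose (median -0.03), with *Tmed2*, a cargo receptor, at -0.46 and *Kdelr3*, a retrieval receptor for ER proteins, at 0.59. Over all transcripts 22.8% were lower and 10.7% higher, and the difference between these lists and the members was not tested.

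The PERK branch, which slows translation and raises ATF4 and CHOP, was the list with the largest falls. Of 12 genes tested 8 fell, none rose, and the median was -0.70, against 22.8% lower calls over all transcripts. *Ddit3*, encoding CHOP, was at 71.4 and 65.4 RPKM at 2.8 mM and at 10.1 and 8.34 RPKM at 16.8 mM (log2 fold change -2.83, SE 0.14). *Trib3* (-1.96), *Ppp1r15a* (-1.76) and *Atf4* (-0.78) fell too, with limma adjusted p-values of 1.2e-04, 4.6e-04 and 0.0054. *Eif2ak3*, encoding PERK itself, had a log2 fold change of 0.00 (SE 0.08) and did not pass. Other genes of the list ranged from large to small differences. *Nupr1* was at 181 and 180 RPKM at 2.8 mM and at 45.0 and 59.4 RPKM at 16.8 mM. *Cebpg* was at 9.26 and 8.55 RPKM at 2.8 mM and at 5.33 and 4.73 RPKM at 16.8 mM. *Asns* was at 9.09 and 8.65 RPKM at 2.8 mM and at 7.83 and 8.18 RPKM at 16.8 mM. *Chac1* was at 16.5 and 15.2 RPKM and at 13.6 and 14.6 RPKM. Which kinase acts on these genes was not tested. Of the other stress transducers 2 of 5 tested fell, among them *Tmbim6*, a regulator of IRE1 (-0.51).

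**Figure D4:**
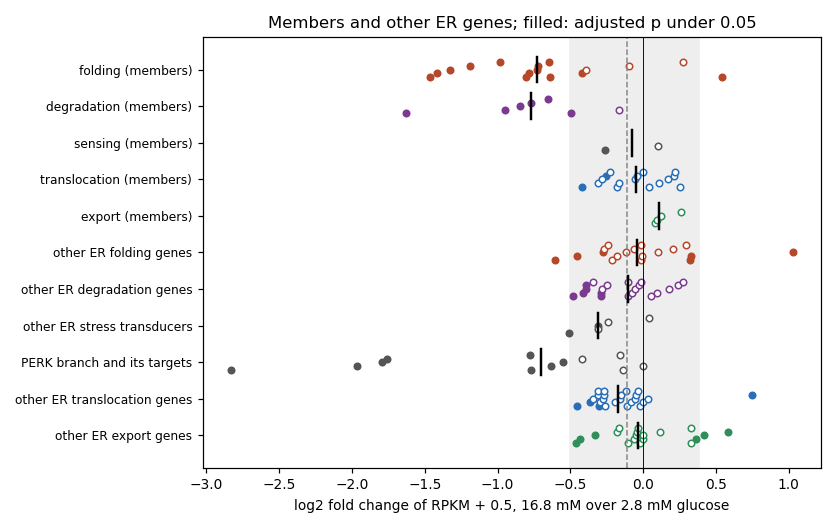
Log2 fold change of RPKM + 0.5 at 16.8 mM over 2.8 mM glucose for each gene tested, by role, for the members (top 5 rows) and the other ER genes (lower 6 rows), with filled points past an adjusted p of 0.05 and a black bar at each median. The grey band and dashed line show the middle 80% and the median of all transcripts; the medians of the folding (-0.73) and degradation (-0.77) members and of the PERK branch (-0.70) lie left of the band.

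Islet hormones are the main clients of this machinery. Of 6 hormone genes 3 rose and none fell. *Ins1* had a log2 fold change of 1.77, *Iapp* 0.93 and *Ins2* 0.75, and all 6 summed to 23342 and 26569 RPKM in the 2.8 mM libraries and 43811 and 47555 RPKM in the 16.8 mM libraries. The part of this rise in the member values was not tested. Acinar cells of the exocrine pancreas are rich in the same ER machinery. The 20 acinar genes summed to 152 and 431 RPKM at 2.8 mM and 373 and 749 RPKM at 16.8 mM. All 17 tested had log2 fold changes above 0 (0.49 to 1.42), none passed in the test as stated and 7 had an unadjusted p under 0.05. Their part in the member values was not tested. The 4 plasma cell markers lay between 0.331 and 0.467 RPKM in sum, the 7 endothelial between 2.80 and 4.52 RPKM, the 7 stromal between 1.68 and 3.53 RPKM, the 8 macrophage and leukocyte markers between 17.0 and 24.6 RPKM and the 6 duct markers between 35.5 and 46.9 RPKM. Of 3 duct markers tested, *Krt7* fell (log2 fold change -0.55) and *Spp1* rose (0.67). No marker was at 0 in every library.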

How the data were processed

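The authors deposited RPKM values per RefSeq transcript for 4 islet libraries of total RNA (TruSeq RNA v2 kit). The processing notes name STAR, bedtools, DESeq and mm9, without versions. Use of strand in counting is not given in the sources used here, so overlapping genes may share reads. Depth was taken as the value at which low values lay closest to whole reads with the genomic span as length (GENCODE vM1, build 37). At that depth, 83.1% to 84.2% of low values were whole reads (within 0.1) with the span and 19.7% to 23.1% with exons. Because the depth was fitted to spans, the exon share is not a fair comparison. The paper names RefSeq exons, so the use of spans is inferred. Reads were reconstructed from this depth.

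Of 33923 entries 28047 were distinct. Where the mean reached 1 RPKM, limma 3.58.1 (R 4.3.3, variance trend) was run on log2(RPKM + 0.5), with Benjamini-Hochberg adjustment at 0.05. The added 0.5 understates changes of low genes. Other steps used Python 3.11.15, pandas 2.3.3, numpy 2.4.6 and matplotlib 3.10.9. On simulated data with 199 changed genes of 6814, the test found 197, and 9.63% of its calls were unchanged genes. These values describe the simulated libraries only. How far they hold for the members, or for the deposited libraries, where 33.4% of transcripts were called, was not tested.

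Members, lists and motifs were chosen with earlier results of these data known. Any member may be named; of each list the largest called change in each direction is named, plus *Ero1lb* and PERK branch genes. Alternatives were other scalings, minimums, pseudocounts, thresholds and entries, the replicate block, each library left out, and voom on reconstructed reads.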

Additional observations from a re-analysis of the deposited data

How the results depend on the processing

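Of the 22 members called, 15 kept their call under every alternative that could be computed and none changed sign. The 7 others were *Dnajb9*, *Pdia3*, *Ero1l*, *Sec63*, *Spcs3*, *Derl2* and *Ern1*. Falls among the members numbered 21 and stayed within 1.5 times that under every alternative (15 to 20 with 1 library left out, 29 at most, with voom and the block). Rises among the members numbered 1, and were 6 with quantile normalization, 10 with centring, 0 with no minimum, 2 with a minimum of 1 RPKM in every library, 0 at an adjusted p of 0.01, 5 with voom, and 0 to 1 with 1 library left out. Rises over all transcripts numbered 838, and were 1576 with quantile normalization, 1662 with centring, 430 at 0.01, 522 with a log2 change of at least 0.5, 1911 with voom and 714 to 904 with 1 library left out. Falls over all transcripts numbered 1790, and were 761 at 0.01, 748 with a log2 change of at least 0.5, 4157 with voom and 1059 to 1865 with 1 library left out, the lowest without 16.8 mM glucose replicate 2. The causes of these shifts were not tested.

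The libraries share only a replicate number, and deviations of same-numbered libraries correlated at 0.31. The replicate block kept 21 of the 22 member calls and ended that of *Ero1l* (limma adjusted p = 0.070). With the replicate block, member rises numbered 2 and falls 23, and falls over all transcripts 2835. With voom and the replicate block, member rises numbered 8, and over all transcripts there were 2650 rises and 5673 falls.

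Only values near 0 changed sign. *Sec62* became 0.023 with quantile normalization and 0.026 with centring, and *Rpn2* became 0.043 with centring. With 1 library left out, *Sec62* ran from -0.12 to 0.0086, *Sec61b* from -0.038 to 0.12, *Ssr2* from -0.036 to 0.26 and *Ostc* from -0.11 to 0.11. In such fits the lone library of a group is assumed to vary like the other group. How far depth limits the precision was not tested.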
